A study of Mus musculus with 12 samples.

Results

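Slc6a19, Slc6a18, Slc7a7, Slc7a8, Slc7a9, Slc3a1, Slc3a2, Slc1a1, Slc16a10 and Slc6a13 encode amino acid transporters, or chains of them, of the kidney proximal tubule. They were chosen by gene name, and all 10 were found among the 57490 genes of the deposited count table.

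The study sequenced polyA RNA from kidneys of 12 male mice to ask what changes in the kidney of a diabetic mouse, and what a herbal extract, Yiqi Huoxue Yangyin Decoction (YHY), does to those changes. The diabetic mice were of the strain BKS.Cg-Dock7m +/+ Leprdb/JNju and homozygous for the db allele of the leptin receptor gene (db/db), which disables leptin signalling throughout the body, so obesity and diabetes come together. The controls were heterozygous db/m mice of the BKS background, whose genotype the labels also call wild-type. The Ctrl group held 4 db/m mice given purified water, the Model group 4 db/db mice given purified water, and the YHY group 4 db/db mice given the extract at 6.24 g/mL, a concentration that the sources used here do not place among the paper's doses. All groups were gavaged once a day for 4 weeks, with 50 µL for every 10 g of mouse. The mice arrived at 8 weeks of age, had 1 week to acclimatise, and are labelled as 13 weeks old at collection. The db/db mice entered the study with random blood glucose of at least 16.7 mmol/L and the db/m mice with less than 11.1 mmol/L. The sample labels give whole kidney tissue, while the series text gives renal cortex.

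The proximal tubule takes back almost all filtered amino acids: carriers in the brush border bring them into the cell, and others in the basolateral membrane pass them on to the blood. Several of these carriers work only with a partner protein. A multi-pass light chain is brought to the membrane by a single-pass heavy chain, and the neutral amino acid carriers of the brush border need collectrin (Cltrn).

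Library totals ran from 24415658 to 33276634 counts. They were 33276634, 29632718, 33236670 and 32677732 in Ctrl 1 to Ctrl 4, 29784346, 26356745, 26095074 and 24415658 in Model 1 to Model 4, and 25310437, 25149764, 26187322 and 29698342 in YHY 1 to YHY 4. The lowest count of any of the 10 genes in any mouse was 93, for Slc7a7 in YHY 1. Transcripts of the mitochondrial genome took 18.6%, 22.7%, 18.4% and 18.5% of the counts in Ctrl 1 to Ctrl 4 and 41.2%, 58.9%, 55.3% and 53.4% in Model 1 to Model 4. In YHY 1 to YHY 4 they took 53.8%, 64.6%, 54.6% and 54.2%. The 95% Wilson interval of each share was at most 0.0396 points wide, which covers counting error only. Every db/db library lay above every Ctrl library in this share. Its part in the results was not tested.

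Levels are given as CPM, counts relative to the size of the library, after scaling by the trimmed mean of M-values (TMM), and per gene length as FPKM where genes are compared with each other. Ctrl 2 had the highest CPM of its group for 7 of the 10 genes, against 32.5% of the 17431 genes tested, and the lowest for 2 (Slc3a1 and Slc6a18), against 30.3%. Model 1 was the highest of its group for 7 of the 10, against 31.7%, and the lowest for 1 (Slc6a18), against 31.6%. YHY 4 was the highest for 9 of the 10, against 31.5%. At the other end, YHY 1 was the lowest of its group for 7, against 26.9%, Model 4 for 6, against 27.2%, and Ctrl 1 for 5, against 20.3%. Earlier work on the same files had set Ctrl 2, Model 1 and YHY 4 apart as well, so beside results with all 12 mice, a part is also given with the 9 that remain without them. Where a mouse left out was the highest of its group, its removal lowers that group by construction. The values with the 9 mice therefore show only how far a result depends on these mice.

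By FPKM, Slc6a18 was the most abundant of the 10 in every group, at 139 ± 20.8 (SD, n = 4) in Ctrl, 125 ± 30.9 in Model and 180 ± 26.2 in YHY. In each group its lowest mouse lay above the highest mouse of the next gene in order, Slc6a13, which had a mean FPKM of 44.0 ± 4.68 in Ctrl, 33.1 ± 4.63 in Model and 31.9 ± 10.1 in YHY. Below Slc6a13, neighbours in the order of FPKM overlapped between mice, except Slc7a8 and Slc16a10 in Ctrl. Slc16a10 was the least abundant in every group, at a mean FPKM of 3.57 ± 0.315 in Ctrl, 3.10 ± 0.968 in Model and 1.6 ± 0.686 in YHY. Mice of 1 group differed most for Slc6a19 and Slc7a7, with a within-group SD of log2 CPM of 0.95 and 0.91, and least for Slc6a18, at 0.26. The median of this SD was 0.44 over the 10 genes and 0.36 over all genes tested.

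**Figure D1:**
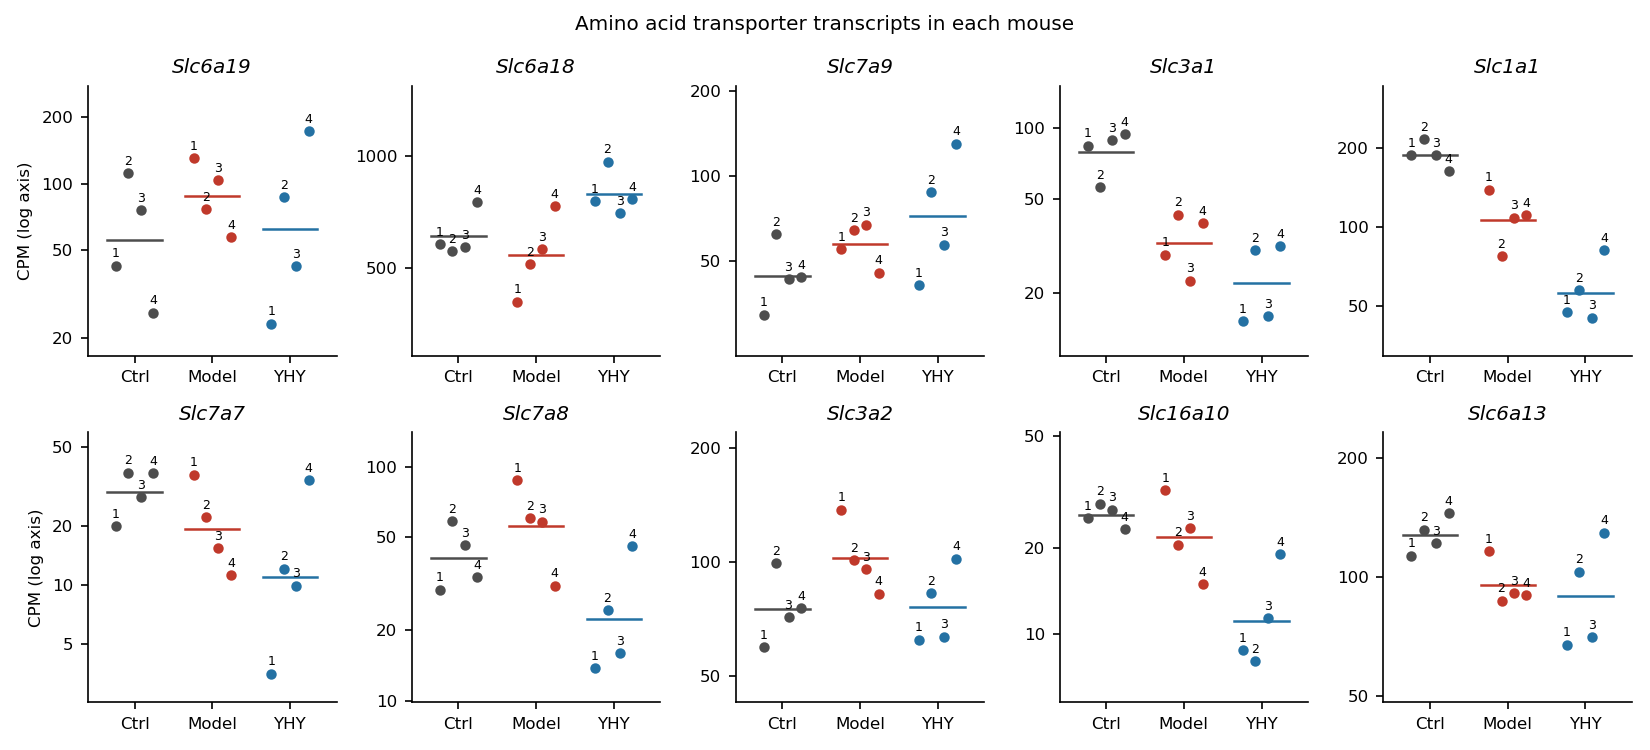
CPM of each of the 10 transporters (log axis) in the 12 mice, by group; each dot is 1 mouse, the digit beside it is its number, and the horizontal line is the geometric mean of the 4 mice. Slc3a1 and Slc1a1 lie lower in all 4 Model and all 4 YHY mice than in any Ctrl mouse, and YHY 4 is the highest YHY mouse in 9 of the 10 panels.

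The comparison of Model with Ctrl asks what differs in the diabetic kidney. Of the 10 transporters, 2 fell (Slc3a1, the heavy chain of the cystine carrier, and Slc1a1, the brush border carrier of glutamate and aspartate) and 0 rose, in edgeR's quasi-likelihood test at a Benjamini-Hochberg adjusted p under 0.05. Over all 17431 genes tested, 18.5% fell and 19.6% rose, so 2 of 10 is near the background. Under the study's own threshold, a fold change over 1.2 with an unadjusted P under 0.05, the same fit gave 2 lower and 1 higher (Slc3a2), where the background was 22.4% lower and 24.5% higher. DESeq2 also gave 2 lower and 0 higher, beside 3512 and 3741 of the 17431 genes tested. The median log2 fold change was -0.18 over the 10 genes and 0.038 over all genes tested.

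The comparison of YHY with Model asks what the extract changed in db/db kidneys. Here 3 of the 10 transporters fell, Slc1a1 and the basolateral carriers Slc7a8 and Slc16a10, and 0 rose, in edgeR's test. The background was 7.62% of genes lower and 5.63% higher. With the study's threshold 3 were lower and 1 was higher (Slc6a18), against 14.7% and 13.9% of all genes. DESeq2 gave 3 lower and 1 higher, beside 1685 and 1435 of the 17431 genes tested. The median log2 fold change was -0.47 over the 10 genes and 0.022 over all genes tested.

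YHY against Ctrl sets treated db/db mice beside db/m mice and shares its mice with the other comparisons, so the values stand side by side only. Slc1a1, Slc3a1 and Slc16a10 fell, and Slc7a9, the light chain of the cystine carrier, rose. That is 3 lower and 1 higher, where 24.2% of all genes tested were lower and 26.1% higher. With the study's threshold the counts were 4 lower and 1 higher, against 26.6% and 29.4%. The median log2 fold change was -0.61 over the 10 genes and 0.10 over all genes tested.

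**Figure D2:**
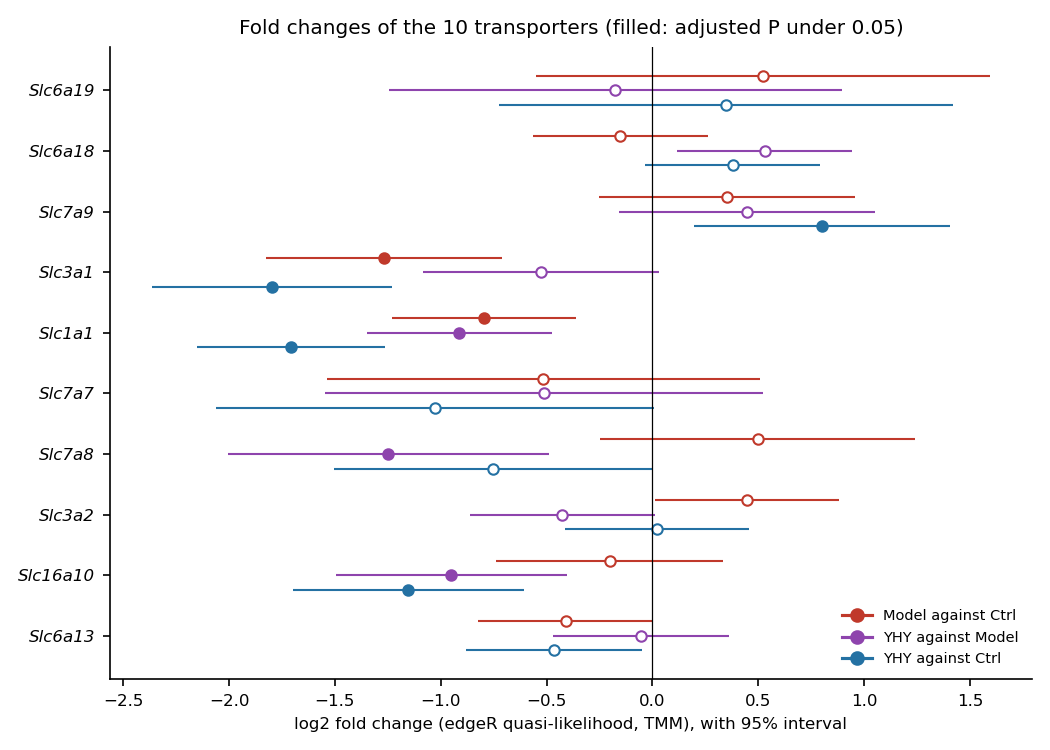
Log2 fold change of each transporter with its 95% interval from edgeR's quasi-likelihood fit, for Model against Ctrl, YHY against Model and YHY against Ctrl; filled dots passed an adjusted p of 0.05. Slc1a1 lies below 0 with a filled dot in every comparison, at -0.80, -0.91 and -1.71, and the intervals of Slc6a19 and Slc7a7 are the widest. With other scalings the open dots near 0 change sign for Slc6a18, Slc7a9 and Slc16a10 (Model against Ctrl), Slc6a13 (YHY against Model) and Slc6a19, Slc6a18 and Slc3a2 (YHY against Ctrl).

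Slc1a1 (ENSMUSG00000024935, chromosome 19, bases 28812449 to 28891360 of GRCm39) encodes the acidic amino acid carrier of the brush border. Its CPM was 188, 216, 188 and 164 in Ctrl 1 to Ctrl 4, 139, 77.2, 109 and 111 in Model 1 to Model 4, and 47.4, 57.4, 45.1 and 81.5 in YHY 1 to YHY 4. Every Model and YHY mouse lay below every Ctrl mouse, and 3 of the 4 YHY mice lay below every Model mouse, the exception being YHY 4, which overlapped Model 2. Slc1a1 fell to 57.6% of Ctrl in Model, a log2 fold change of -0.80 ± 0.21 (SE; edgeR, adjusted p = 0.00637). It fell further to 53.1% of Model in YHY, by -0.91 ± 0.21 (adjusted p = 0.0102), and stood in YHY at 30.6% of Ctrl, a log2 fold change of -1.71 ± 0.21 (adjusted p = 8.84e-06). With the 9 mice the log2 fold changes were -0.92, -0.98 and -1.89, with adjusted p of 0.000965, 0.00464 and 3.94e-06. In each comparison the call held in 22 of 22 alternative settings, with adjusted p from 0.000786 to 0.0367, from 0.000477 to 0.0317 and from 1.75e-14 to 5.76e-05. Spata6l on the other strand overlaps 20919 bases of the gene and had 16 to 101 counts. Since kidney tissue was sequenced in bulk, fewer proximal tubule cells and less RNA per cell cannot be told apart for this or any other gene here.

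Slc3a1 (ENSMUSG00000024131, chromosome 17, bases 85335804 to 85371664 of GRCm39) encodes the heavy chain rBAT, which brings the brush border carrier of cystine and basic amino acids to the membrane. Its CPM was 84.1, 56.1, 88.4 and 94.0 in Ctrl 1 to Ctrl 4, 29.0, 42.9, 22.5 and 39.3 in Model 1 to Model 4, and 15.1, 30.3, 16 and 31.5 in YHY 1 to YHY 4. All 8 db/db mice were below the lowest Ctrl mouse, Ctrl 2, while YHY and Model mice overlapped. Slc3a1 fell to 41.5% of Ctrl in Model, a log2 fold change of -1.27 ± 0.26 (SE; edgeR, adjusted p = 0.00142), and to 28.8% of Ctrl in YHY, -1.80 ± 0.27 (adjusted p = 5.04e-05). YHY against Model gave -0.53 ± 0.26, which did not pass (adjusted p = 0.198). With the 9 mice the values against Ctrl were -1.40 (adjusted p = 0.00105) for Model and -2.17 (adjusted p = 3.43e-05) for YHY, and both calls held in 22 of 22 alternatives, with adjusted p from 1.41e-06 to 0.00873 and from 1.68e-10 to 0.000413. The last 767 bases of Slc3a1 overlap Prepl on the other strand, which had 590 to 1775 counts, and the labels do not say whether counting used the strand.

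Slc7a9 (ENSMUSG00000030492, chromosome 7, bases 35148221 to 35165461 of GRCm39) encodes the light chain b0,+AT that Slc3a1 carries to the brush border. Its CPM was 32.4, 62.3, 43.3 and 44.0 in Ctrl 1 to Ctrl 4, 55.2, 64.4, 67.4 and 45.5 in Model 1 to Model 4, and 41.2, 88.0, 57.3 and 130 in YHY 1 to YHY 4. The 3 groups overlapped, and YHY 4 was the highest mouse of all. Slc7a9 rose to 174% of Ctrl in YHY, a log2 fold change of 0.80 ± 0.29 (SE; edgeR, adjusted p = 0.0282), with 2 of 4 YHY mice above every Ctrl mouse. The log2 fold change was 0.35 ± 0.28 for Model against Ctrl (adjusted p = 0.348) and 0.45 ± 0.29 for YHY against Model (adjusted p = 0.322). The former passed with library size without mitochondrial counts (0.69, adjusted p = 0.0356; 0.0356 to 0.830 across alternatives). The call in YHY against Ctrl rests on single mice: it was lost without Ctrl 1 (0.59, adjusted p = 0.116), Ctrl 3 (0.70, 0.0808), Ctrl 4 (0.71, 0.0730), YHY 2 (0.74, 0.0641) or YHY 4 (0.45, 0.144). It was also lost with the 9 mice (0.59, adjusted p = 0.0547), with only the 8 mice compared (0.76, 0.0608) and when libraries were scaled by their size alone (0.34, 0.282). Across all 22 alternatives, adjusted p lay between 0.000612 and 0.282.

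The chains of this carrier were compared inside each mouse, where the scaling of libraries cancels. The ratio of Slc7a9 to Slc3a1, in FPKM, was 0.327, 0.944, 0.416 and 0.397 in Ctrl 1 to Ctrl 4, 1.61, 1.27, 2.54 and 0.982 in Model 1 to Model 4, and 2.31, 2.46, 3.05 and 3.51 in YHY 1 to YHY 4. Every db/db mouse lay above every Ctrl mouse, the nearest pair being Ctrl 2 and Model 4. The log2 ratio was higher by 1.66 in Model than in Ctrl (two-sided exact permutation test, p = 0.0286, the smallest that 4 against 4 can give) and by 0.89 in YHY than in Model (exact permutation p = 0.0857). After adjustment over the 14 ratio tests these became 0.08 and 0.15, so neither passed. With the 9 mice the differences were 1.96 and 0.82.

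**Figure D3:**
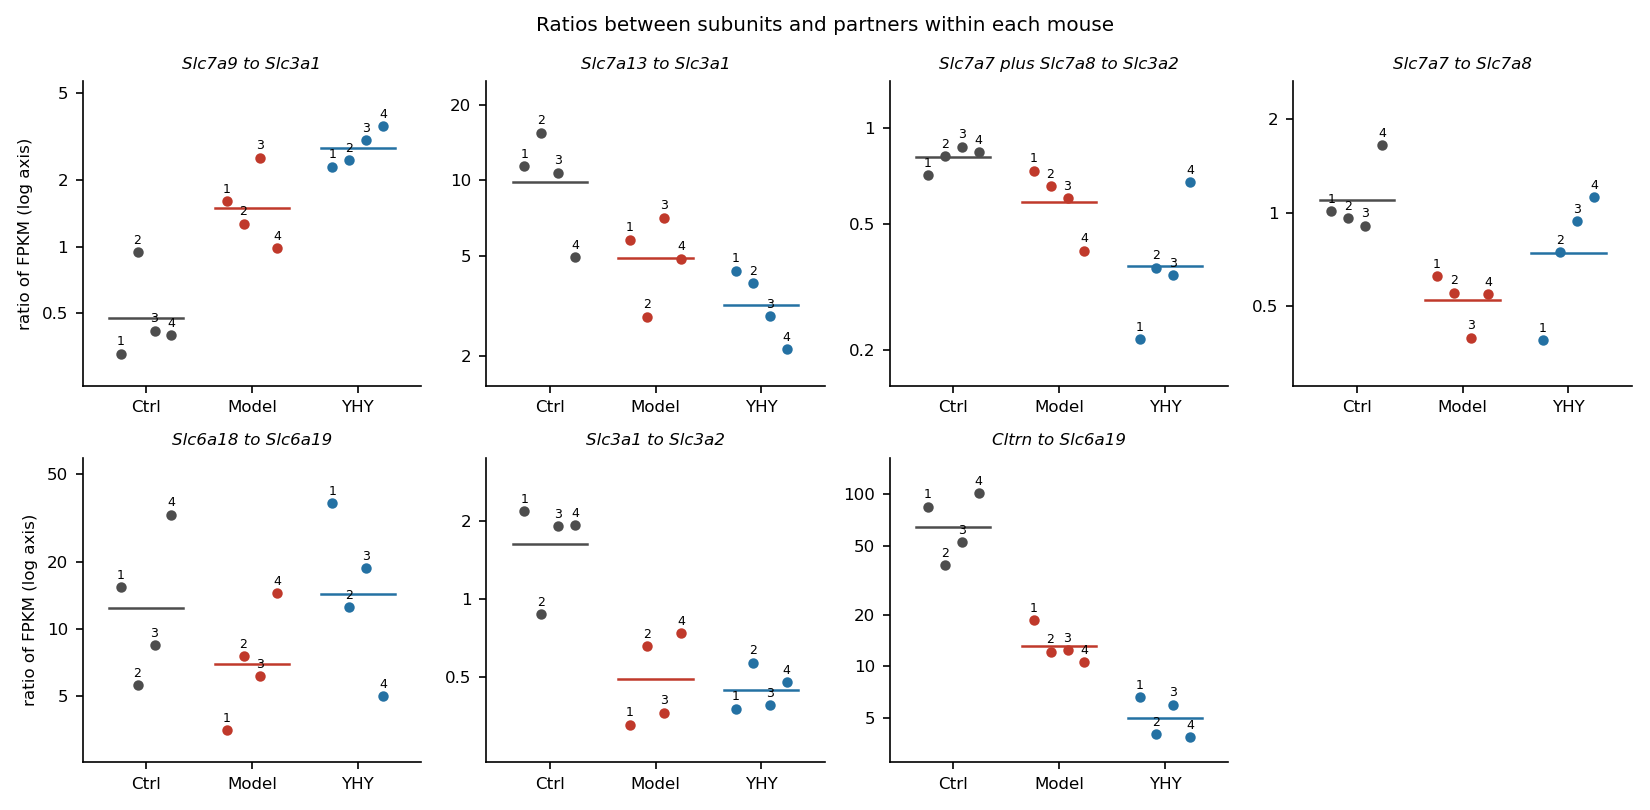
Ratios of FPKM between chains and partners inside each mouse (log axis), by group; each dot is 1 mouse with its number, and the horizontal line is the geometric mean of the 4 mice. The ratio of Slc7a9 to Slc3a1 has geometric means of 0.475, 1.50 and 2.79 in Ctrl, Model and YHY, and the ratio of Cltrn to Slc6a19 has 65.0, 13.1 and 4.99.

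Slc7a13, another light chain of Slc3a1, which carries aspartate, glutamate and cystine in the late proximal tubule, was the most abundant of the other amino acid transporters, with a mean FPKM of 153 over the 12 mice. Its FPKM was 421, 382, 417 and 204 in Ctrl 1 to Ctrl 4, 74.2, 54.2, 70.5 and 84.5 in Model 1 to Model 4, and 29.1, 52.2, 20.2 and 29.6 in YHY 1 to YHY 4. The 3 groups did not overlap. Slc7a13 fell in Model against Ctrl by -2.33 ± 0.29 (log2, SE; edgeR, adjusted p = 2.68e-05) and in YHY against Model by -1.11 ± 0.28 (adjusted p = 0.0162). Inside each mouse the ratio of Slc7a13 to Slc3a1, in FPKM, had geometric means of 9.82 in Ctrl, 4.90 in Model and 3.20 in YHY, with overlapping groups and exact permutation p of 0.0857 and 0.171 (adjusted 0.15 and 0.24).

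Slc6a19 (ENSMUSG00000021565, chromosome 13, bases 73827864 to 73852984 of GRCm39) encodes the main neutral amino acid carrier of the brush border, B0AT1. Its CPM was 42.5, 112, 75.8 and 26.0 in Ctrl 1 to Ctrl 4, 130, 76.8, 104 and 57.1 in Model 1 to Model 4, and 23.2, 87.1, 42.3 and 173 in YHY 1 to YHY 4. The mice of a group spanned 4.31 times in Ctrl, 2.28 times in Model and 7.46 times in YHY, and the groups overlapped. No comparison passed the test: the log2 fold change was 0.52 (95% interval -0.55 to 1.59) in Model against Ctrl, -0.18 (-1.25 to 0.90) in YHY against Model and 0.35 (-0.73 to 1.42) in YHY against Ctrl. Single mice moved the last pair: without YHY 4 they were -0.86 and -0.34, and without YHY 1 they were 0.13 and 0.65. An lncRNA on the other strand, Slc6a19os, overlaps 5040 bases of the gene. It had 3 to 4 counts in the Ctrl mice, 4 to 24 in the Model mice and 27 to 92 in the YHY mice.

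Slc6a18 (ENSMUSG00000021612, chromosome 13, bases 73809871 to 73826142 of GRCm39) lies 1721 bases from Slc6a19 on the same strand and encodes B0AT3, a neutral amino acid carrier of the late proximal tubule. Its CPM was 579, 554, 568 and 750 in Ctrl 1 to Ctrl 4, 404, 511, 560 and 732 in Model 1 to Model 4, and 754, 965, 702 and 765 in YHY 1 to YHY 4. In 3 of the 4 YHY mice it was above every Model mouse, and YHY 3 lay below Model 4. The log2 fold change in YHY against Model was 0.53 ± 0.20 (SE; edgeR, adjusted p = 0.0852), which did not pass, though DESeq2 (0.53, adjusted p = 0.0304) and edgeR without Model 4 (0.69, adjusted p = 0.0392) passed. Across all 22 alternatives, adjusted p lay between 0.0304 and 0.196. The values were -0.15 ± 0.19 for Model against Ctrl and 0.38 ± 0.19 for YHY against Ctrl (adjusted p = 0.571 and 0.118). The first passed with library size alone (-0.60, adjusted p = 0.0374; 0.0374 to 0.877 across alternatives), and the second with upper-quartile scaling (0.50, 0.0400) and library size without mitochondrial counts (0.83, 0.00336; 0.00336 to 0.783 across alternatives). The ratio of Slc6a18 to Slc6a19, in FPKM, overlapped between the groups, with geometric means of 12.5, 6.97 and 14.4.

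Cltrn, the partner that Slc6a19 and Slc6a18 need at the brush border, fell in every comparison. Its CPM was 1114, 1344, 1236 and 817 in Ctrl 1 to Ctrl 4, 746, 288, 397 and 186 in Model 1 to Model 4, and 47.3, 109, 78.2 and 207 in YHY 1 to YHY 4. Model mice were all below Ctrl mice, and only YHY 4 reached above a Model mouse, Model 4. Cltrn fell to 35.9% of Ctrl in Model (log2 -1.48 ± 0.42, SE; edgeR, adjusted p = 0.0114), to 27.3% of Model in YHY (-1.88 ± 0.42, adjusted p = 0.0104) and to 9.78% of Ctrl in YHY (-3.35 ± 0.45, adjusted p = 1.98e-05).

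The ratio of Cltrn to Slc6a19, in FPKM, separated all 3 groups. It was 85, 38.9, 52.9 and 102 in Ctrl 1 to Ctrl 4, 18.6, 12.2, 12.4 and 10.6 in Model 1 to Model 4, and 6.61, 4.04, 6.0 and 3.87 in YHY 1 to YHY 4. The log2 ratio differed by -2.31 in Model against Ctrl and by -1.39 in YHY against Model. Both had a two-sided exact permutation p of 0.0286, the smallest possible, and an adjusted p of 0.08 over the 14 ratio tests, which did not pass. With the 9 mice the differences were -2.72 and -1.11.

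Slc3a2 (ENSMUSG00000010095, chromosome 19, bases 8684246 to 8700733 of GRCm39) encodes the heavy chain 4F2hc of the basolateral carriers, whose light chains in this membrane are Slc7a7 (y+LAT1, basic amino acids in exchange for neutral ones) and Slc7a8 (LAT2, neutral amino acids). Slc3a2 had a CPM of 59.6, 99.2, 71.6 and 75.5 in Ctrl 1 to Ctrl 4, 137, 101, 95.9 and 82.4 in Model 1 to Model 4, and 62.3, 82.8, 63.4 and 102 in YHY 1 to YHY 4. The groups overlapped. The log2 fold change was 0.45 ± 0.20 in Model against Ctrl (SE; edgeR, adjusted p = 0.0966), -0.43 ± 0.21 in YHY against Model (adjusted p = 0.184) and 0.022 ± 0.20 in YHY against Ctrl (adjusted p = 0.938). The first passed in 3 of 22 alternatives: without Ctrl 2, the highest Ctrl mouse (0.59, adjusted p = 0.0413), with upper-quartile scaling (0.55, 0.0376) and with library size without mitochondrial counts (0.77, 0.0019). Its adjusted p lay between 0.0019 and 0.883 across them all. YHY against Ctrl passed with library size without mitochondrial counts (0.48, adjusted p = 0.0240; 0.0240 to 0.997 across alternatives).

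Slc7a8 (ENSMUSG00000022180, chromosome 14, bases 54959666 to 55019403 of GRCm39) had a CPM of 29.9, 58.5, 46.4 and 33.8 in Ctrl 1 to Ctrl 4, 87.7, 60.5, 58.3 and 31.0 in Model 1 to Model 4, and 13.8, 24, 16 and 46.0 in YHY 1 to YHY 4. YHY 1, YHY 2 and YHY 3 lay below every Model and every Ctrl mouse, and YHY 4 lay among them. Slc7a8 fell to 42.1% of Model in YHY, a log2 fold change of -1.25 ± 0.36 (SE; edgeR, adjusted p = 0.0310). Model against Ctrl gave 0.50 ± 0.35 (adjusted p = 0.282) and YHY against Ctrl -0.75 ± 0.35 (adjusted p = 0.0894). The former passed with library size without mitochondrial counts (0.82, adjusted p = 0.0406; 0.0406 to 0.821 across alternatives) and was 0.11 with library size alone. The call in YHY against Model held in 14 of 22 alternatives. It was lost without Model 1 (-1.01, adjusted p = 0.0924), Model 2 (-1.24, 0.0584), Model 3 (-1.26, 0.0701), YHY 1 (-1.05, 0.0735), YHY 2 (-1.24, 0.0674) or YHY 3 (-1.09, 0.0788), with only the 8 mice compared (-1.21, 0.0544) and with the replicate number as a block (-1.32, 0.0580). Across all 22, adjusted p lay between 0.000277 and 0.0924. With the 9 mice it held (-1.46, adjusted p = 0.00592), and YHY against Ctrl passed as well (-1.07, 0.00479), as it did without YHY 4 alone (-1.23, 0.00409) or Ctrl 1 alone (-0.96, 0.0468), with library size alone (-1.20, 0.00662) and with no filter (-0.79, 0.00861). For YHY against Ctrl, adjusted p lay between 0.00409 and 0.396.

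Slc7a7 (ENSMUSG00000000958, chromosome 14, bases 54606899 to 54655237 of GRCm39) lies 304428 bases from Slc7a8 on the same strand. Its CPM was 20.0, 37.2, 27.9 and 36.9 in Ctrl 1 to Ctrl 4, 36.4, 22.2, 15.3 and 11.2 in Model 1 to Model 4, and 3.55, 12.1, 9.93 and 34.1 in YHY 1 to YHY 4. The YHY mice spanned 9.63 times, with YHY 4 among the Ctrl mice. The log2 fold change was -0.51 ± 0.48 in Model against Ctrl, -0.51 ± 0.49 in YHY against Model and -1.03 ± 0.49 in YHY against Ctrl (SE; edgeR, adjusted p = 0.425, 0.531 and 0.0909). Without YHY 4 the last pair passed, at -1.34 (adjusted p = 0.0377) and -1.85 (adjusted p = 0.00161). YHY against Ctrl also passed with the 9 mice (-1.79, 0.00161), with library size alone (-1.51, 0.0140) and with no filter (-1.06, 0.00446). Across all 22 alternatives, adjusted p lay between 0.0377 and 0.907 against Model and between 0.00161 and 0.243 against Ctrl. Oxa1l on the other strand overlaps 232 bases of Slc7a7 and had 859 to 2343 counts.

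Inside each mouse, the ratio of Slc7a7 to Slc7a8 in FPKM was 1.01, 0.959, 0.909 and 1.65 in Ctrl 1 to Ctrl 4, 0.626, 0.553, 0.397 and 0.547 in Model 1 to Model 4, and 0.389, 0.748, 0.940 and 1.1 in YHY 1 to YHY 4. Model and Ctrl mice did not overlap, and YHY mice overlapped both. The log2 ratio differed by -1.07 in Model against Ctrl (two-sided exact permutation p = 0.0286, adjusted 0.08) and by 0.51 in YHY against Model (p = 0.229, adjusted 0.267). Slc7a7 plus Slc7a8 over their heavy chain Slc3a2 had geometric means of 0.806 in Ctrl, 0.586 in Model and 0.368 in YHY, with exact permutation p of 0.0571 and 0.114 (adjusted 0.133 and 0.178). The ratio of the heavy chains, Slc3a1 to Slc3a2, had geometric means of 1.64, 0.492 and 0.448, with no overlap between Ctrl and Model (exact permutation p = 0.0286, adjusted 0.08) and overlap between Model and YHY (p = 0.714). Of the 14 ratio tests, 5 reached the smallest p and 0 passed after adjustment. No share over other pairs of genes stands beside this count.

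Slc16a10 (ENSMUSG00000019838, chromosome 10, bases 39909528 to 40018254 of GRCm39) encodes TAT1, the basolateral uniporter of aromatic amino acids. Its CPM was 25.6, 28.7, 27.4 and 23.4 in Ctrl 1 to Ctrl 4, 32.1, 20.6, 23.5 and 15.0 in Model 1 to Model 4, and 8.77, 8.01, 11.3 and 19.0 in YHY 1 to YHY 4. All YHY mice were below all Ctrl mice, and 3 of the 4, without YHY 4, were below all Model mice. Slc16a10 fell to 51.8% of Model in YHY (log2 -0.95 ± 0.26, SE; edgeR, adjusted p = 0.0243) and to 45.0% of Ctrl (-1.15 ± 0.26, adjusted p = 0.00150), while Model against Ctrl gave -0.20 ± 0.25 (adjusted p = 0.557). The call against Ctrl held in 22 of 22 alternatives and the call against Model in 15 of 22. The latter was lost without Model 1 (-0.74, adjusted p = 0.0789), Model 3 (-0.94, 0.0637), YHY 1 (-0.83, 0.0624), YHY 2 (-0.81, 0.0653) or YHY 3 (-0.93, 0.0506), with only the 8 mice compared (-0.91, 0.0620) and with library size alone (-0.96, 0.0511). With the 9 mice it was -1.05 (adjusted p = 0.00719). Across all 22 alternatives, adjusted p lay between 0.00156 and 0.0789 against Model and between 7.14e-06 and 0.0146 against Ctrl.

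Slc6a13 (ENSMUSG00000030108, chromosome 6, bases 121277186 to 121314692 of GRCm39) encodes GAT2, a basolateral carrier of GABA, betaine and taurine. Its CPM was 113, 132, 121 and 145 in Ctrl 1 to Ctrl 4, 116, 87.1, 91.1 and 89.9 in Model 1 to Model 4, and 67.4, 103, 70.5 and 129 in YHY 1 to YHY 4. Apart from Model 1, the Model mice were below every Ctrl mouse, as were 3 of the YHY mice. The log2 fold change was -0.41 ± 0.20 in Model against Ctrl, -0.054 ± 0.20 in YHY against Model and -0.46 ± 0.20 in YHY against Ctrl (SE; edgeR, adjusted p = 0.109, 0.896 and 0.0584). The first passed without Model 1 (-0.57, adjusted p = 0.0303), with the 9 mice (-0.55, 0.0184), with only the 8 mice compared (-0.43, 0.0226) and with library size alone (-0.83, 0.00589). The last passed in DESeq2 (-0.47, 0.0395), with library size alone (-0.93, 0.00189), with no filter (-0.50, 0.0370), with the 9 mice (-0.70, 0.00383) and without Ctrl 1 (-0.59, 0.0336), Ctrl 3 (-0.56, 0.0448), Model 1 (-0.53, 0.0225) or YHY 4 (-0.67, 0.00535). Across all 22 alternatives, adjusted p lay between 0.00589 and 0.688 and between 0.00189 and 0.902.

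Beyond the 10 genes, 35 other amino acid and peptide transporters were followed, of which 32 were tested. In Model against Ctrl 9 rose and 7 fell, in YHY against Model 2 rose and 2 fell, and in YHY against Ctrl 12 rose and 6 fell. Of all genes tested, 19.6% rose and 18.5% fell, 5.63% rose and 7.62% fell, and 26.1% rose and 24.2% fell. Their median log2 fold changes were 0.19, 0.091 and 0.31, beside 0.038, 0.022 and 0.10 over all genes tested. Among those that rose in Model against Ctrl were Slc43a1 (1.89 ± 0.36, SE), a carrier of branched-chain amino acids, and Slc7a11 (1.70 ± 0.38), the cystine-glutamate exchanger, with edgeR adjusted p of 0.000712 and 0.00232. Both were low, with a mean FPKM of 0.24 in Ctrl and 0.89 in Model for Slc43a1, and of 0.089 and 0.29 for Slc7a11. Slc38a3, a glutamine carrier of the basolateral membrane, had a mean FPKM of 9.55 ± 3.56 (SD, n = 4) in Ctrl, 22.1 ± 4.36 in Model and 21.4 ± 4.40 in YHY. It rose in Model against Ctrl by 1.21 ± 0.23 (SE; adjusted p = 0.000795) and gave -0.046 ± 0.23 in YHY against Model (adjusted p = 0.928). Slc6a6, the taurine carrier and next in abundance, gave -0.13 ± 0.18 and -0.14 ± 0.18, which did not pass.

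Slc6a15, a carrier of branched-chain amino acids and proline, moved in opposite directions in the study's own comparisons. Its CPM was 27.6, 26.3, 24.8 and 13.3 in Ctrl 1 to Ctrl 4, 5.24, 3.95, 5.07 and 3.33 in Model 1 to Model 4, and 11.4, 18.4, 15.1 and 24.8 in YHY 1 to YHY 4. The Model mice lay below all the others, while YHY and Ctrl overlapped. Slc6a15 fell in Model against Ctrl by -2.38 ± 0.27 (log2, SE; edgeR, adjusted p = 1.45e-05) and rose in YHY against Model by 1.98 ± 0.27 (adjusted p = 0.000505), and YHY against Ctrl gave -0.40 ± 0.25 (adjusted p = 0.198). Slc1a4, a carrier of alanine, serine and cysteine, fell in Model against Ctrl (-1.51 ± 0.25, adjusted p = 0.000233) and in YHY against Ctrl (-2.21 ± 0.25, adjusted p = 4.99e-06), and gave -0.70 ± 0.25 in YHY against Model (adjusted p = 0.0767). Its relative Slc1a5, a glutamine carrier, rose in Model against Ctrl (1.03 ± 0.14, adjusted p = 6.78e-05) and in YHY against Ctrl (1.47 ± 0.14, adjusted p = 1.40e-06), and gave 0.44 ± 0.14 in YHY against Model (adjusted p = 0.0514).

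**Figure D4:**
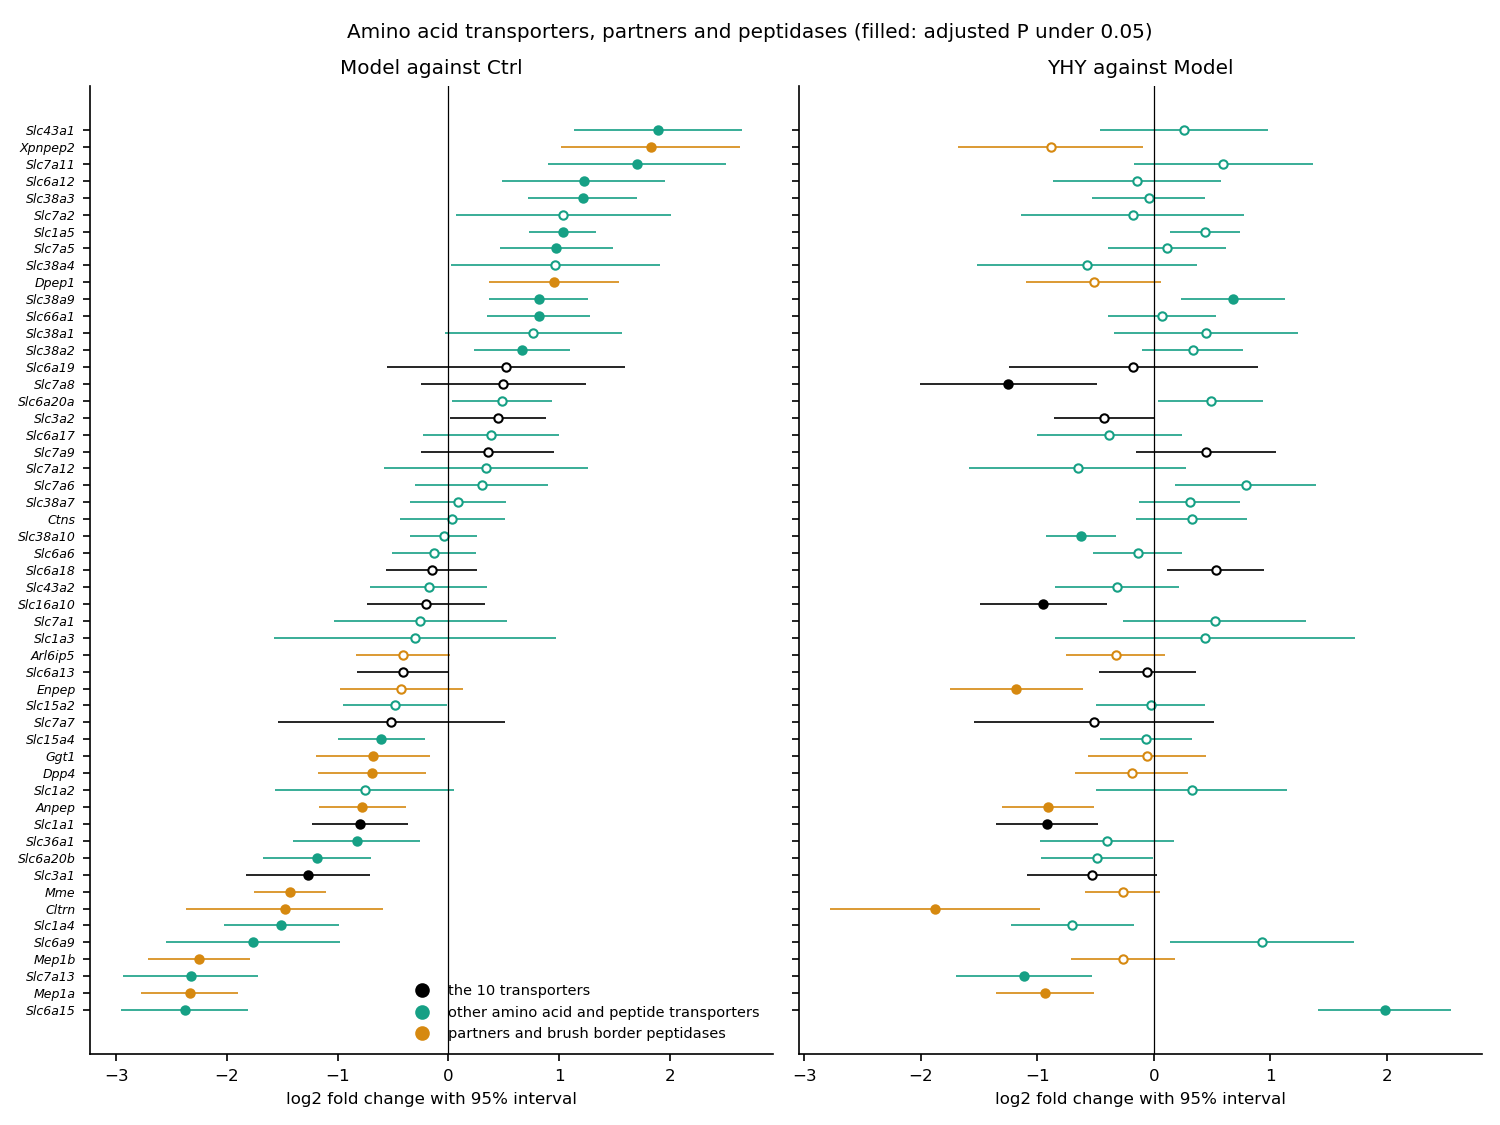
Log2 fold changes with 95% intervals from edgeR for the 10 transporters (black), the other amino acid and peptide transporters (green) and the partners and brush border peptidases (orange), ordered by Model against Ctrl; filled dots passed an adjusted p of 0.05. Slc6a15 lies at -2.38 in the left panel and 1.98 in the right, and Cltrn at -1.48 and -1.88.

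The partners and brush border peptidases, which free amino acids from peptides at the same membrane, numbered 12, and all were tested. In Model against Ctrl 7 fell and 2 rose, in YHY against Model 4 fell, and in YHY against Ctrl 10 fell and 1 rose. Of all genes tested, 18.5% fell and 19.6% rose, 7.62% fell, and 24.2% fell and 26.1% rose. Their median log2 fold changes were -0.69, -0.70 and -1.24. The meprin chain Mep1a fell in both of the study's comparisons, by -2.34 ± 0.21 (SE; edgeR, adjusted p = 2.24e-06) and -0.94 ± 0.20 (adjusted p = 0.00758), as did aminopeptidase N, Anpep, by -0.78 ± 0.19 (adjusted p = 0.00394) and -0.91 ± 0.19 (adjusted p = 0.00635). Mep1b fell in Model against Ctrl (-2.25 ± 0.22, adjusted p = 4.88e-06), and Xpnpep2, a peptidase that releases residues ahead of proline, rose (1.83 ± 0.38, adjusted p = 0.00148).

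Of 7 transcription factors of the tubule, 1 rose and 1 fell in Model against Ctrl, beside 19.6% and 18.5% of all genes tested. Maf was the factor that rose (1.45 ± 0.33, SE, edgeR, adjusted p = 0.00313). Hnf4a, a nuclear receptor of the proximal tubule, fell in YHY against Model (-0.94 ± 0.21, adjusted p = 0.00900), as did Cebpa (-0.93 ± 0.20, adjusted p = 0.00934). These are 2 of 7 lower, beside 7.62% of all genes tested. In YHY against Ctrl 4 of the 7 fell and 2 rose, beside 24.2% and 26.1% of all genes tested, and the list's median log2 fold changes were 0.017, -0.26 and -0.73 in the 3 comparisons. The CPM of Hnf4a was 440, 449, 439 and 403 in Ctrl 1 to Ctrl 4, 426, 387, 526 and 461 in Model 1 to Model 4, and 175, 248, 171 and 343 in YHY 1 to YHY 4. The YHY mice were below all others.

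The promoters of the transporters were searched on both strands for an HNF4 motif (CAAAGTCCA) and a C/EBP-ATF motif (TGATGNAA), neither of which contains the other. RefSeq windows on GRCm38.p6, from 250 bases before to 50 after each gene's start, were held for 9 of the 10 transporters, with no entry for Slc6a18. Of all 32851 such windows, 0.475% held CAAAGTCCA and 3.97% held TGATGNAA. Of the transporters' 16 windows, 3 held a match, 1 of Slc3a1 and 2 of Slc7a7 that overlap and share 1 TGATGCAA. A match describes letters only.

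The 250 bases before the start are shown for the 3 transporters that fell in YHY against Ctrl and for Cltrn, each 5′ to 3′ on the gene's own strand and with matches in capitals: Slc3a1 (chr17:85028097-85028346, plus strand), Slc16a10 (chr10:40142255-40142504, minus strand), Slc1a1 (chr19:28834885-28835134, plus strand) and Cltrn (chrX:164089937-164090186, plus strand).
Slc3a1: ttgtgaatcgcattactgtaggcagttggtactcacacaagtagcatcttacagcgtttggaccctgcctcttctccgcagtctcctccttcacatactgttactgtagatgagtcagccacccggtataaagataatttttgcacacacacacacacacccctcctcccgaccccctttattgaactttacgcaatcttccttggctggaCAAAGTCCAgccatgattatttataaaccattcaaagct
Slc16a10: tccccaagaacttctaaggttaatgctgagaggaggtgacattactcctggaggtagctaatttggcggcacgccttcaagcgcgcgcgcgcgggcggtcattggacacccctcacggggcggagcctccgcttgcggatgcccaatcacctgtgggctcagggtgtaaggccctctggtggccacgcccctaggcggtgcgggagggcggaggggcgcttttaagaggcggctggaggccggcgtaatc
Slc1a1: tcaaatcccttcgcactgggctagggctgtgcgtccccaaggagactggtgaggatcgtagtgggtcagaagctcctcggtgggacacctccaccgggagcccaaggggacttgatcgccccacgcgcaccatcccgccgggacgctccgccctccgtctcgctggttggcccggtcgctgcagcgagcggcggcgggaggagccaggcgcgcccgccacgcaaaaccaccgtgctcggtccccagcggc
Cltrn: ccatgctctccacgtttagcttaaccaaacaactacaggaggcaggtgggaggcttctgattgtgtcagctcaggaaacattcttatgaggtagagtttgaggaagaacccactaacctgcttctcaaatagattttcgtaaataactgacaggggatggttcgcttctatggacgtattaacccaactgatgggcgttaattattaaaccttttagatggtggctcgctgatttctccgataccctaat

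In Slc3a1 the capitals are CAAAGTCCA, 39 bases before the start. The windows of Slc16a10, Slc1a1 and Cltrn that are shown held neither motif.

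The amino acid response, the genes that cells switch on when amino acids run short together with a sensor kinase of the shortage, was followed with 15 genes, all tested. In Model against Ctrl 2 rose, Eif2ak4 (1.53 ± 0.20, SE; edgeR, adjusted p = 3.97e-05), the sensor kinase GCN2, and Cebpb (1.05 ± 0.25, adjusted p = 0.00375), and 1 fell, Vldlr (-0.36 ± 0.13, adjusted p = 0.0448). The list's other genes gave no call in Model against Ctrl. In YHY against Model 1 rose, beside 5.63% of all genes tested, Sesn2 (0.73 ± 0.21, adjusted p = 0.0353). In YHY against Ctrl 4 rose and 1 fell, beside 26.1% and 24.2% of all genes tested (19.6% and 18.5% in Model against Ctrl), and the list's medians were 0.098, 0.33 and 0.71.

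Of 14 markers of the early segments of the proximal tubule (S1 and S2), 3 fell and 1 rose in Model against Ctrl, beside 18.5% and 19.6% of all genes tested. In YHY against Model 2 fell, beside 7.62%, and in YHY against Ctrl 9 fell and 1 rose, beside 24.2% and 26.1%. The list's median log2 fold changes were -0.57, -0.84 and -1.56 in the 3 comparisons. Their summed CPM was 9032 ± 1994 (SD, n = 4) in Ctrl, 6613 ± 1428 in Model and 4342 ± 2033 in YHY. Miox was the most abundant of them, at a mean FPKM of 601. In single mice the sum was 8474, 11541, 9365 and 6748 in Ctrl 1 to Ctrl 4, 8168, 6551, 7004 and 4730 in Model 1 to Model 4, and 2534, 4840, 2994 and 7000 in YHY 1 to YHY 4. Ctrl 2, Model 1 and YHY 4 were each the highest of their group.

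Of 6 markers of the late segment (S3), 5 fell against Ctrl in both Model and YHY, beside 18.5% and 24.2% of all genes tested, and 1 rose in YHY against Model, beside 5.63%. Their summed CPM was 1817 ± 238 (SD, n = 4) in Ctrl, 529 ± 55.8 in Model and 449 ± 87.3 in YHY. Slc5a10 was the most abundant, with a mean FPKM of 62.6, and gave -0.31 ± 0.30 in Model against Ctrl, which did not pass. The mean log2 CPM of all 20 markers differed by -1.02 in Model against Ctrl (two-sided exact permutation p = 0.0286) and by -0.68 in YHY against Model (p = 0.114). Of the -1.02, -0.61 came from 2 late markers, Cyp7b1 and Slc22a7, with log2 fold changes of -5.68 and -6.46 in edgeR's fit, and the mean of the other 18 differed by -0.45. For the 14 early markers alone the same exact permutation test gave -0.30 (p = 0.343) and -0.94 (p = 0.114). Their part in the changes of the 10 transporters was not tested.

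Each transporter was also set against the 20 markers inside each mouse. The log2 CPM of Slc1a1 minus the markers' mean was -0.58, -0.74, -0.73 and -0.42 in Ctrl 1 to Ctrl 4, -0.34, -0.81, -0.52 and -0.022 in Model 1 to Model 4, and -0.27, -0.74, -0.70 and -0.94 in YHY 1 to YHY 4. The 3 groups overlapped, with differences of 0.20 in Model against Ctrl (two-sided exact permutation p = 0.343, adjusted over 20 tests 0.429) and -0.24 in YHY against Model (p = 0.314, adjusted 0.419). For Slc3a1 the exact permutation tests gave differences of -0.27 (p = 0.6, adjusted 0.667) and 0.12 (p = 0.714, adjusted 0.752).

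Slc7a9 measured against the markers was -3.12, -2.53, -2.85 and -2.32 in Ctrl 1 to Ctrl 4, -1.67, -1.07, -1.21 and -1.31 in Model 1 to Model 4, and -0.47, -0.13, -0.35 and -0.26 in YHY 1 to YHY 4. The 3 groups did not overlap. The differences were 1.39 and 1.01, both at the smallest exact permutation p of 0.0286, with an adjusted p of 0.0816. Slc6a19 (1.68), Slc7a8 (1.47), Slc3a2 (1.46) and Slc16a10 (0.76) also stood at the smallest p in Model against Ctrl, as did Slc6a13 (0.59) in YHY against Model. Of the 20 tests, 7 reached the smallest p and 0 passed after adjustment. No share over all genes stands beside this count. The markers' own mean differed by -1.02 in Model against Ctrl and by -0.68 in YHY against Model. A gene with equal CPM in the groups would therefore also lie higher against them in Model than in Ctrl, and in YHY than in Model. The same holds for the mean of the 14 early markers, which differed by -0.30 and -0.94. In edgeR's fit of YHY against Model, Slc7a9 gave 0.45 and Slc6a13 -0.054, and neither passed. Against the 14 early markers alone, the difference in Model against Ctrl was 0.67 for Slc7a9 (exact permutation p = 0.0571) and 0.043 for Slc16a10 (p = 0.771), and Model and Ctrl mice overlapped for both. It was 0.96 for Slc6a19, 0.75 for Slc7a8 and 0.74 for Slc3a2, at the smallest p and with no overlap. Slc6a13 in YHY against Model was 0.84 against the early markers (exact permutation p = 0.0571), and Model and YHY mice overlapped. For Slc7a9 that comparison gave 1.27 with no overlap (exact permutation p = 0.0286, adjusted 0.143). In Model against Ctrl the difference was -0.52 for Slc1a1 and -0.99 for Slc3a1, so the sign of Slc1a1 depends on which markers are used.

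**Figure D5:**
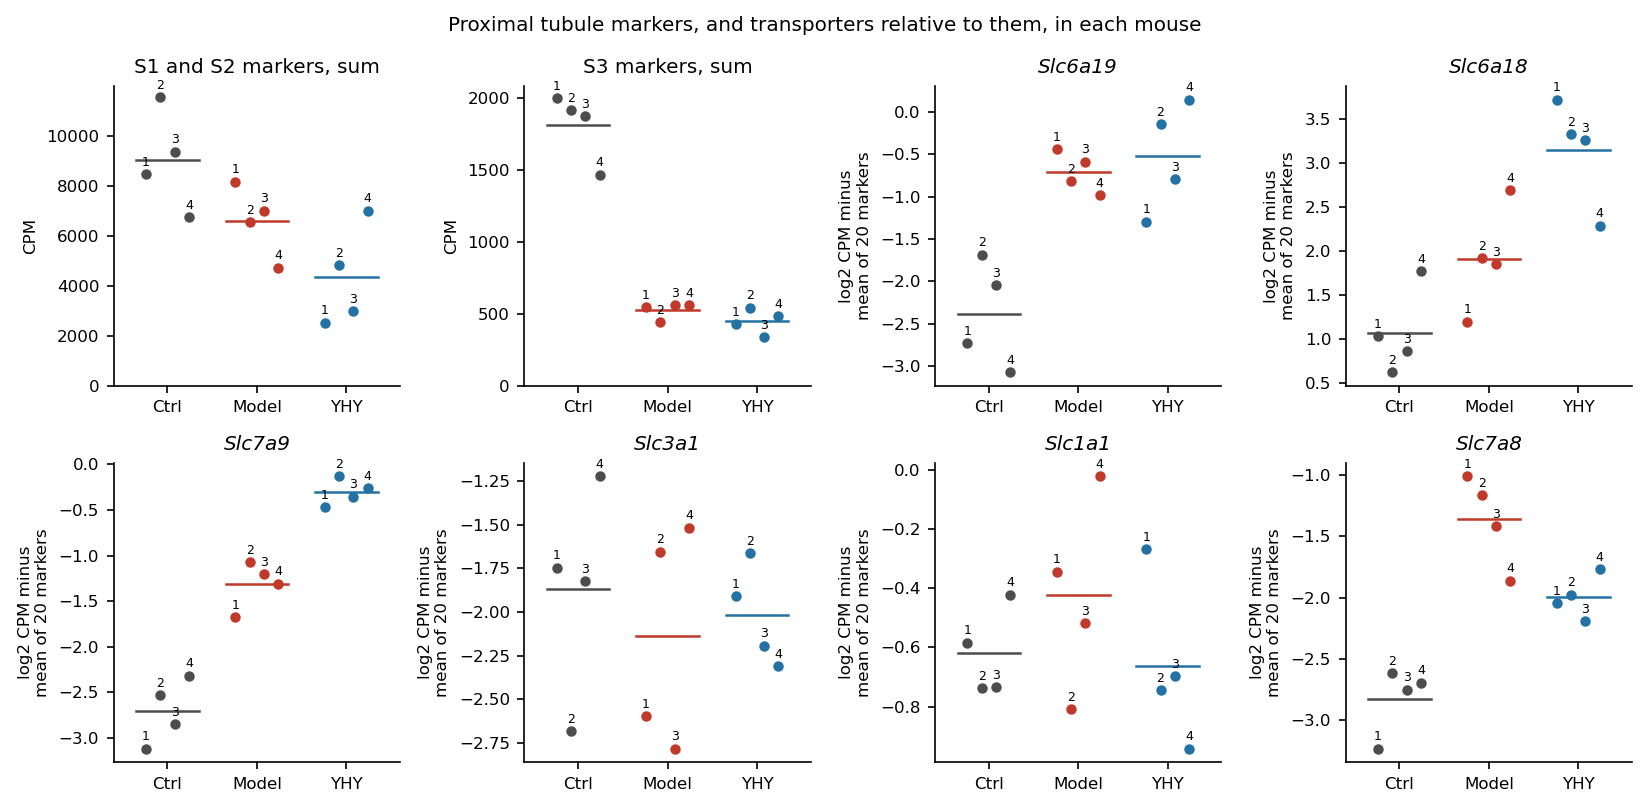
The first panels show the summed CPM of the early and of the late proximal tubule markers, by group. The others show log2 CPM of Slc6a19, Slc6a18, Slc7a9, Slc3a1, Slc1a1 and Slc7a8 minus the mean log2 CPM of the 20 markers in the same mouse. Each dot is 1 mouse with its number and the horizontal line is the mean of the 4 mice. Slc7a9 lies higher in Model than in Ctrl and higher again in YHY with no overlap, by 1.39 and 1.01, whereas the groups of Slc1a1 and Slc3a1 overlap. The markers' own mean differed by -1.02 and -0.68 in these comparisons. Against the 14 early markers alone, in values not drawn, Slc7a9 overlaps between Model and Ctrl (0.67). There Slc7a7, Slc1a1 and Slc6a13 change sign in Model against Ctrl, and Slc7a7 and Slc1a1 in YHY against Model.

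Markers of the other kidney cells were followed too, and their part was not tested. The shares of all genes tested are those given above for each comparison. No marker was at 0 in every mouse, and Avpr2, Cd3e, Adipoq and Plin1 were too low to test. In Model against Ctrl, 3 of 4 markers of the thick ascending limb fell, as did 2 of 3 tested of principal cells and 1 of 4 of intercalated cells, while 2 of 4 of the distal convoluted tubule, 2 of 5 of podocytes, 1 of 4 of stroma and 1 of 3 tested of leukocytes rose. In YHY against Model, 1 of 4 of the distal convoluted tubule and 1 of 4 of intercalated cells fell. In YHY against Ctrl, 3 of the thick ascending limb, 2 of principal cells and 1 of intercalated cells fell, 1 of stroma and 1 of leukocytes rose, and those of podocytes (3 up, 1 down) and the distal convoluted tubule (2 up, 1 down) went both ways. The 4 endothelial and 2 tested adipocyte markers gave no call in edgeR's test in any comparison, with median log2 fold changes of 0.10, -0.073 and 0.095 and of 0.59, -0.089 and 0.50.

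In summed CPM (mean ± SD, n = 4), the thick ascending limb markers stood at 1917 ± 568 in Ctrl, 982 ± 190 in Model and 1384 ± 535 in YHY, and Umod was their most abundant gene (mean FPKM 156). The principal cell markers, led by Aqp2 (277), stood at 750 ± 382, 329 ± 70.0 and 283 ± 180. The distal convoluted tubule markers, led by Pvalb (65.2), stood at 388 ± 115, 722 ± 26.1 and 539 ± 185, and the intercalated cell markers, led by Atp6v1g3 (31.9), at 161 ± 28.4, 168 ± 39.4 and 114 ± 18.0. Podocyte markers stood at 129 ± 18.3, 154 ± 65.7 and 107 ± 36.2. Endothelial markers, led by Emcn (9.68), stood at 142 ± 26.8, 145 ± 21.2 and 147 ± 51.3, and stromal markers, led by Acta2 (25.4), at 137 ± 24.6, 152 ± 27.7 and 167 ± 41.9. Leukocyte markers, led by Cd68 (8.00), stood at 11.3 ± 2.65, 15.3 ± 3.25 and 24.9 ± 9.16, and adipocyte markers, led by Fabp4 (12.8), at 53.8 ± 8.83, 54.9 ± 5.26 and 65.3 ± 17.3.

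Likeness of pattern was measured as Pearson's r of log2 CPM over the 12 mice, among 8456 named genes with a mean CPM of at least 10. For Slc6a19 the closest were Gstt2 (r = 0.93, Spearman's rho 0.92), Asl (0.90, rho 0.94) and the phosphate carrier Slc34a1 (0.90, rho 0.90). For Slc7a8 they were Spp2 (0.98, rho 0.94), Sdhb (0.97, rho 0.92) and Ndufv3 (0.96, rho 0.95), and for Slc3a2 they were Chchd10 (0.97, rho 0.97), Pdk2 (0.93, rho 0.89) and Pck1 (0.93, rho 0.85). With the group means removed, r of these 9 pairs ran from 0.89 to 0.98. The points share their group and their library scaling and the genes were picked for a high r among many, so r is a description and carries no p.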

How the data were processed

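The deposited file of raw gene counts (unit: counts, reads per gene as the authors counted them) was used for all 12 mice. Per the labels the authors used Trimmomatic 0.39, HISAT2 2.2.1 and featureCounts 2.0.1 with the build GRCm39. The authors' comparison tables, with 12 per-mouse columns, fold changes and p-values, and their KEGG pathway tables were not used. The 10 genes and all gene lists were chosen with earlier results of these data known.

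Counts were fitted with edgeR 4.0.16 (R 4.3.3; TMM, filterByExpr, quasi-likelihood F-test, 1 fit of 3 groups), with Benjamini-Hochberg adjustment over the 17431 genes tested and calls at 0.05. SE is the log2 fold change over the square root of F. FPKM uses the deposited gene length. Ratios inside a mouse and levels minus the markers (log2 CPM, prior count 2) were tested by two-sided exact permutation over mice (scipy 1.17.1). Alternatives were DESeq2 1.42.0, RLE, upper-quartile and library-size scalings, other filters, the study's threshold, a replicate block, and fits without single mice or without Ctrl 2, Model 1 and YHY 4.

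The text names the 10 genes, measured genes of the partner, peptidase and transcription factor lists, up to 4 called genes per direction of the other transporters and the amino acid response, the most abundant transporters and markers, the 2 markers that moved the markers' mean most (outside the rule), and the 3 genes most like Slc6a19, Slc7a8 and Slc3a2. Cell types were read from marker lists of early and late proximal tubule, podocytes, thick ascending limb, distal convoluted tubule, principal cells, intercalated cells, endothelium, stroma, leukocytes and adipocytes. Promoters came from RefSeq (GRCm38.p6), and no protein sequences were available. Single genes of the partner, transcription factor and podocyte lists, which the lists' counts include, and 1 motif are not reported here.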

Additional observations from a re-analysis of the deposited data

Results flagged for a closer look

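In 7 of the 87 groups of 4 mice examined, the highest or lowest mouse stood apart, its gap to the nearest mouse taking more of the group's range than Dixon's 95% limit allows. Chance gives this in about 1 in 20 groups. Ctrl 4 had a CPM of 750 for Slc6a18, where the other Ctrl mice had 554 to 579. Model 1 had a CPM of 116 for Slc6a13, where the other Model mice had 87.1 to 91.1. Ctrl 2 had a log2 ratio of Slc3a1 to Slc3a2 of -0.19, where the other Ctrl mice had 0.94 to 1.13. Ctrl 4 had a log2 CPM of Slc6a13 minus the markers of -0.60, where the others had -1.45 to -1.32.

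Ctrl 2 also had the highest mitochondrial share of its group, 22.7% beside 18.4% to 18.6%, and the lowest total, 29632718 counts beside 32677732 to 33276634. YHY 2 had a mitochondrial share of 64.6%, where the other YHY mice had 53.8% to 54.6%.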

How the results depend on the processing

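The calls of Slc3a1 and Slc1a1 against Ctrl, of Slc1a1 in YHY against Model and of Slc16a10 in YHY against Ctrl held in 22 of 22 alternatives. Of 280 counts compared, 4 of them with 2 other marker references and the rest under 23 settings, 233 stayed within 1.5 times and 47 moved. The cause of the changes below was not tested.

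Scaling shifted the median of all genes. For Model against Ctrl it was 0.038 with TMM, 0.14 with upper quartile, -0.39 with library size alone and 0.37 with library size without mitochondrial counts; for YHY against Ctrl it was 0.10, 0.22, -0.33 and 0.57, and for YHY against Model 0.022, 0.041, 0.026 and 0.16. With library size alone, genes higher and lower were 1547 and 5670 in Model against Ctrl (21.4% higher, beside 51.5% with TMM). They were 491 and 687 in YHY against Model. In YHY against Ctrl they were 2365 and 5979 (28.3% of calls higher, beside 51.9%). Of the 10 transporters 4 fell in Model against Ctrl, and 0 rose and 6 fell in YHY against Ctrl. Without mitochondrial counts, genes higher and lower were 5575 and 1601 (77.7%) in Model against Ctrl. They were 1513 and 838 (64.4%, beside 42.5%) in YHY against Model and 7426 and 2145 (77.6%) in YHY against Ctrl. With this scaling 3 transporters rose in each of the comparisons with Ctrl. With upper quartile 1 transporter rose in Model against Ctrl, beside 4025 of the 17431 genes tested. In YHY against Ctrl 2 rose, beside 5232.

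DESeq2 gave 1 transporter higher in YHY against Model, beside 1435 of all genes. With no filter 6 transporters fell in YHY against Ctrl, beside 4286 of all genes. With the 9 mice 0 rose and 6 fell there, beside 4041 and 4439 of all genes. With only the 8 mice compared 0 rose there, beside 3915 of all genes. In YHY against Model, 692 genes and 1 transporter fell with only the 8 mice compared. The study's threshold gave 2429 genes higher and 2559 lower in YHY against Model, with 1 transporter higher there. In Model against Ctrl it gave 1 transporter higher, beside 4266 of all genes.

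Some values that did not pass changed sign. With library size alone Slc7a9 was -0.076 in Model against Ctrl, and Slc6a19, Slc6a18 and Slc3a2 were -0.11, -0.083 and -0.42 in YHY against Ctrl. Without mitochondrial counts Slc6a18 and Slc16a10 were 0.18 and 0.11 in Model against Ctrl and Slc6a13 0.067 in YHY against Model. Slc3a2 in YHY against Ctrl was -0.016 with no filter, -0.032 with the 9 mice and -0.010 with the 8. Against the early markers alone, Slc7a7, Slc1a1 and Slc6a13 were -0.32, -0.52 and -0.12 in Model against Ctrl, and Slc7a7 and Slc1a1 0.13 and 0.015 in YHY against Model.

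Leaving out each mouse in turn, transporters higher numbered 0 to 1 in each comparison, and those lower 2 to 3 in Model against Ctrl, 1 to 4 in YHY against Model and 3 to 6 in YHY against Ctrl. Genes higher in YHY against Model ran from 419 to 1043 and lower from 727 to 1678. In Model against Ctrl they ran from 2507 to 3624 and from 2596 to 3711. In YHY against Ctrl they ran from 3711 to 4492 and from 3974 to 4567. In YHY against Model Slc6a19 ran from -0.86 to 0.13 and Slc6a13 from -0.26 to 0.069; in YHY against Ctrl Slc6a19 ran from -0.34 to 0.75 and Slc3a2 from -0.15 to 0.17.

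With the replicate number as a block, Slc7a8 in YHY against Model was -1.32 (adjusted p = 0.0580). There 2 transporters fell, beside 1127 of all genes. Nothing states that the numbers pair mice. Correlations of residuals between same-numbered mice of different groups ran from -0.17 to 0.12 (12 pairs), and between others from -0.25 to 0.21 (36 pairs). A pairing with a small effect, or one on few genes, could go unseen in these correlations.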
